A study of Mus musculus with 20 samples.

Results

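Genomic imprinting leaves a gene active on the copy inherited from only one parent, and many imprinted genes set how much the embryo grows. Insulin-like growth factor 2 (Igf2), made from the paternal copy, is the best known of them, and the Dlk1-Dio3 domain carries the protein-coding gene Dlk1 on the paternal copy and the non-coding RNAs Meg3, Rian and Mirg, together with a long array of microRNAs, on the maternal copy. Such genes are read strongly in embryonic connective tissue, which is where mouse embryonic fibroblasts (MEFs) come from. The 10 imprinted genes followed here were taken as a list of names: H19, Igf2, Dlk1, Meg3, Rian, Mirg, Peg3, Mest, Plagl1 and Nnat. Each was read from the probe set that names this gene alone and has the highest mean over the 20 arrays. Of the 10 genes, 8 had such a probe set, among 19938 genes with one in the whole table, and each of these 8 had exactly 1. H19 and Mirg were not analysed here, because no probe set names H19 and the 1 that names Mirg also names another gene.

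RNA was measured on whole-transcript microarrays in 4 lines of MEFs taken from E14.5 embryos. The lines were immortalized MEFs (iMEFs), carrying the SV40 T and t antigens, and primary MEFs, and either kind came in 2 genotypes, Ubf fl/fl/Er-cre+/+ with loxP-flanked Ubf and its isogenic control Ubf wt/wt/Er-cre+/+. All 4 lines thus carried the tamoxifen-inducible ER-Cre recombinase, all received 50 nM 4-hydroxytamoxifen (4-HT) for 4 h, and only in the fl/fl lines could Cre remove part of the gene for UBF, a factor of ribosomal RNA gene transcription. Cells were harvested at 0, 24, 48, 72 and 96 h post 4-HT (pHT). There was 1 array for each line and time, so every genotype in every cell type was 1 line, and what sets a genotype apart cannot be told apart from what sets that line apart. All levels are log2 values, and a step of 1 is a doubling. Differences are given ± SE from limma, and p-values are adjusted over all 15272 genes that were over the 40th percentile of the array on at least 2 arrays.

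The arrays had medians over these genes between 7.96 and 8.34, and the mean correlation of an array with the others of its line was between 0.955 and 0.985. The lowest correlation was that of the fl/fl iMEF array at 24 h pHT. The mRNA of Ubtf, the gene for UBF, lay between 10.01 and 10.62 in fl/fl iMEFs and between 10.53 and 10.65 in fl/fl MEFs. The positions of its probes relative to the removed exons were not used, so Ubtf does not check the labels here. Of 13 fibroblast markers 13 were over the 40th percentile on every array of either MEF line and 11 on every array of either iMEF line. Lum, a collagen-binding proteoglycan of fibroblasts, stood between 4.65 and 5.41 in iMEFs and at 9.39 or more in MEFs.

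Promoter sequences are shown for Peg3, Mest and Meg3, since among the 8 genes of the list Peg3 showed the largest difference between cell types, Mest the largest between genotypes, and Meg3 the largest between genotypes of those in the Dlk1-Dio3 domain. Imprinted expression is tied to methylation of cytosine in CG pairs, and the capitals mark each CG. The sequences are RefSeq windows on build GRCm38.p6, each 300 bases long and reaching from upstream of the start of the gene into its first bases, and for a gene with several starts the window with most CG pairs is given. Of the list, 9 genes had such a window.
Peg3 (chr7:6730370-6730669, minus strand): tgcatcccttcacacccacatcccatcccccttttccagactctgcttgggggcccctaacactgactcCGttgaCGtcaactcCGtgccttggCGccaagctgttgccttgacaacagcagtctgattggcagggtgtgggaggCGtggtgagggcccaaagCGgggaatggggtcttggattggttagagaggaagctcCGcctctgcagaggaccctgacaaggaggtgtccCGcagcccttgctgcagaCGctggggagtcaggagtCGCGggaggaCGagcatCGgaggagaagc
Mest (chr6:30737800-30738099, plus strand): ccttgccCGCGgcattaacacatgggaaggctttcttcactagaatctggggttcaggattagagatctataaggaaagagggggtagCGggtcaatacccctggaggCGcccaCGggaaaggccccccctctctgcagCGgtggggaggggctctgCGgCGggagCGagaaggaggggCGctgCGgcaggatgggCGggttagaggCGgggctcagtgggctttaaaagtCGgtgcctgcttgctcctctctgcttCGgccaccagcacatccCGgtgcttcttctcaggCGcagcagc
Meg3 (chr12:109540746-109541045, plus strand): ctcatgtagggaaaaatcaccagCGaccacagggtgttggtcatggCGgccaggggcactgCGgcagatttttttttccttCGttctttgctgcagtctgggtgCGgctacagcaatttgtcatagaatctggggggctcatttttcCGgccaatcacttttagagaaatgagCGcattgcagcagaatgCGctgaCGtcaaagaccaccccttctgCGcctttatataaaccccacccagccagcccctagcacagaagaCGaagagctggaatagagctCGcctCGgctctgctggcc
The Peg3 window held 13 CG pairs, a number reached or passed by 40.4% of the 27025 genes with a window. The Mest window held 17 CG pairs, reached by 33.9% of genes, and the Meg3 window held 13. Plagl1 had the most CG pairs of the list, 26, which 18.5% of genes reached, and Rian had 0. These counts describe the sequence only, as methylation was not measured on these arrays.

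The first question was how the imprinted genes differ between immortalized and primary cells. Mean levels of the 4 lines were compared, so that the error is the spread between the lines of one cell type. Igf2, Peg3, Mest, Plagl1, Meg3 and Nnat were lower in iMEFs, 0 genes of the list were higher, and Dlk1 did not pass the test. Rian was called lower as well, but it reached the test only through the cell type in which it was high, and it is left out of the count of 6. Over all genes tested 66.3% passed in this comparison, 31.2% of them lower and 35.1% higher, so that a call by itself was common and the size of the difference carries the description. The median difference was -2.31 on the log2 scale over the 7 genes other than Rian and 0.12 over all genes. Setting the array medians equal moved the median of all genes to 0.36 and the called genes from 5367 higher and 4764 lower to 7995 higher and 3671 lower, and 6 genes other than Rian were lower under that scaling and under quantile normalization too.

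**Figure D1:**
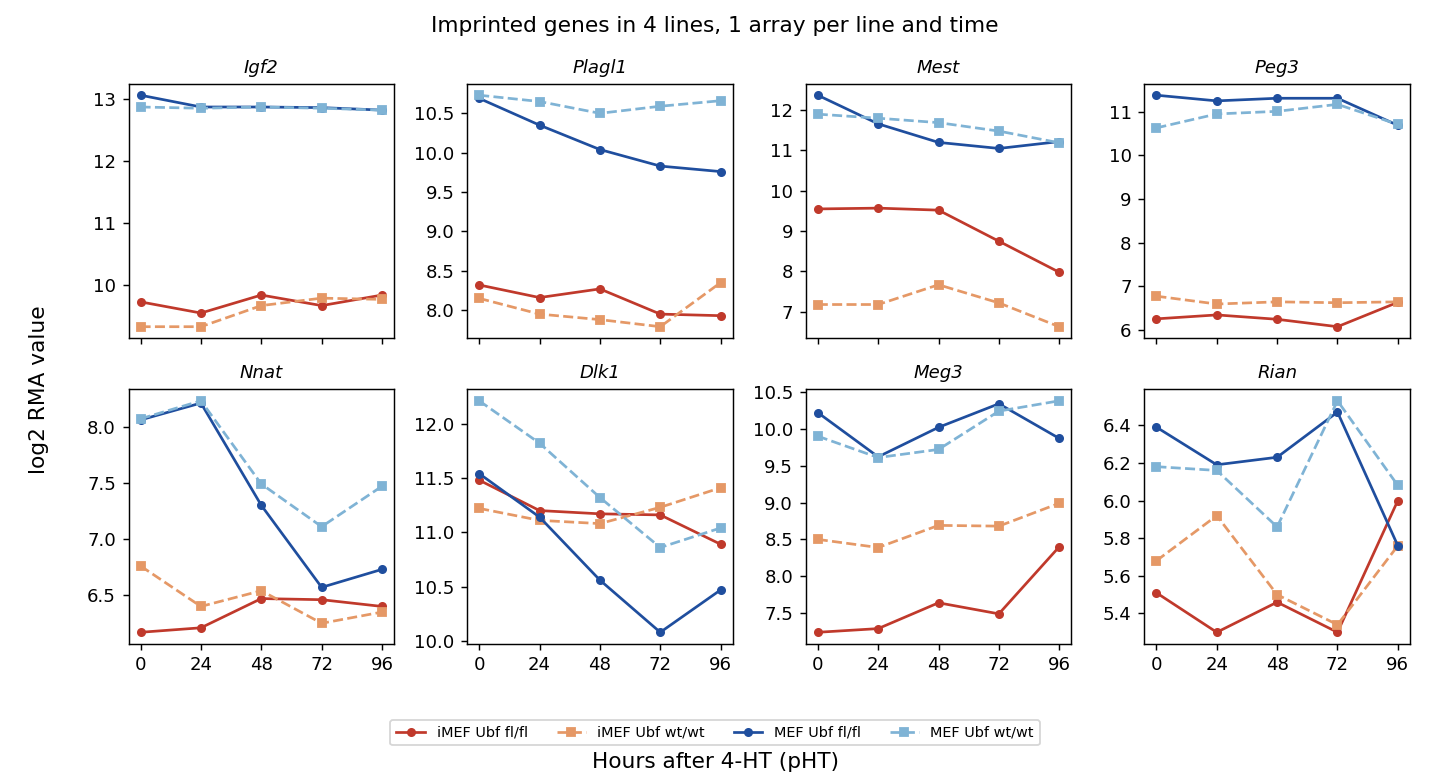
Level of each imprinted gene (vertical axes, log2 RMA value, each panel with its own range) against time after 4-HT (horizontal axes, h) in the 4 lines, with 1 point per array. Igf2, Plagl1, Peg3, Mest and Meg3 lay higher in every MEF array (blue) than in any iMEF array (red and orange), while Dlk1 overlapped and fell in both MEF lines.

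Igf2, the fetal growth factor, stood at 13.06, 12.87, 12.87, 12.86 and 12.82 in fl/fl MEFs and at 12.87, 12.85, 12.87, 12.85 and 12.82 in wt/wt MEFs at 0 to 96 h pHT. It stood at 9.73, 9.55, 9.84, 9.67 and 9.84 in fl/fl iMEFs and at 9.33, 9.33, 9.67, 9.79 and 9.77 in wt/wt iMEFs. The cell types did not overlap, and both MEF lines were almost flat. Igf2 was 9.32-fold lower in iMEFs, a log2 difference of -3.22 ± 0.09 (adjusted p = 0.000641).

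Plagl1, a zinc finger factor that restrains proliferation and is known to regulate other imprinted genes, ran from 9.76 to 10.73 in MEFs and from 7.79 to 8.35 in iMEFs. Its difference was -2.31 ± 0.18 (adjusted p = 0.00107), and the cell types again did not overlap. Mest, a paternally expressed gene of mesoderm whose protein is related to hydrolases, ran from 11.05 to 12.37 in MEFs and from 6.63 to 9.57 in iMEFs, a difference of -3.43 ± 0.62 (adjusted p = 0.00793). The large error came with the iMEF lines, which differed from each other in Mest as described below.

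Peg3, a paternally expressed zinc finger gene that affects growth and maternal behaviour, showed the largest difference of the 8. It stood at 11.38, 11.25, 11.31, 11.31 and 10.69 in fl/fl MEFs and at 10.63, 10.95, 11.01, 11.17 and 10.71 in wt/wt MEFs. In iMEFs all 10 values lay between 6.07 and 6.77, close to the 40th percentile of the arrays, which ran from 6.16 to 6.42. Peg3 was over that percentile on 7 of the 10 iMEF arrays. The fitted difference was -4.56 ± 0.17 (adjusted p = 0.000641), and with iMEF values under the percentile raised to it, Peg3 was at least 23.2-fold lower in iMEFs. Nnat, which encodes a small membrane proteolipid of developing brain, ran from 6.57 to 8.23 in MEFs and from 6.17 to 6.76 in iMEFs. The ranges overlapped through the late MEF arrays, and the difference of line means was -1.12 ± 0.13 (adjusted p = 0.00239).

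In the Dlk1-Dio3 domain the genes did not move together. Meg3, the first of the maternal non-coding RNAs, ran from 9.61 to 10.38 in MEFs and from 7.24 to 8.99 in iMEFs, with no overlap and a difference of -1.86 ± 0.34 (adjusted p = 0.00868). Rian, the non-coding RNA that lies next and is the host of small nucleolar RNAs, was over the 40th percentile on only 4 arrays, all from MEFs, and so passed the filter through the cell type in which it was high. Its levels, 5.30 to 6.00 in iMEFs and 5.76 to 6.53 in MEFs, overlapped, and its difference of -0.61 ± 0.09 (adjusted p = 0.00474) is given as a value only. Dlk1, which encodes a transmembrane protein of the Notch ligand family that holds back adipocyte differentiation, ran from 10.89 to 11.48 in iMEFs and from 10.08 to 12.21 in MEFs, inside which the iMEF range lay. Its difference of 0.09 ± 0.24 (adjusted p = 0.745) hid a change with time: iMEFs minus MEFs was -0.52 at 0 h, -0.33 at 24 h, 0.18 at 48 h, 0.73 at 72 h and 0.39 at 96 h. The sign of the Dlk1 difference changed with the times averaged, and also with the lines, since it was -0.26 without the fl/fl MEF line and 0.43 without the wt/wt MEF line. Of 19 microRNA precursors of the domain tested, 4 were higher and 1 lower in iMEFs, where 35.1% of all genes were higher and 31.2% lower. Their differences ran from -2.07 to 0.86, with a median of 0.10, against 0.12 for all genes. The lowest, Mir377, was over the 40th percentile on 0 of 5 fl/fl and 1 of 5 wt/wt iMEF arrays, so its difference is given as a value only.

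**Figure D2:**
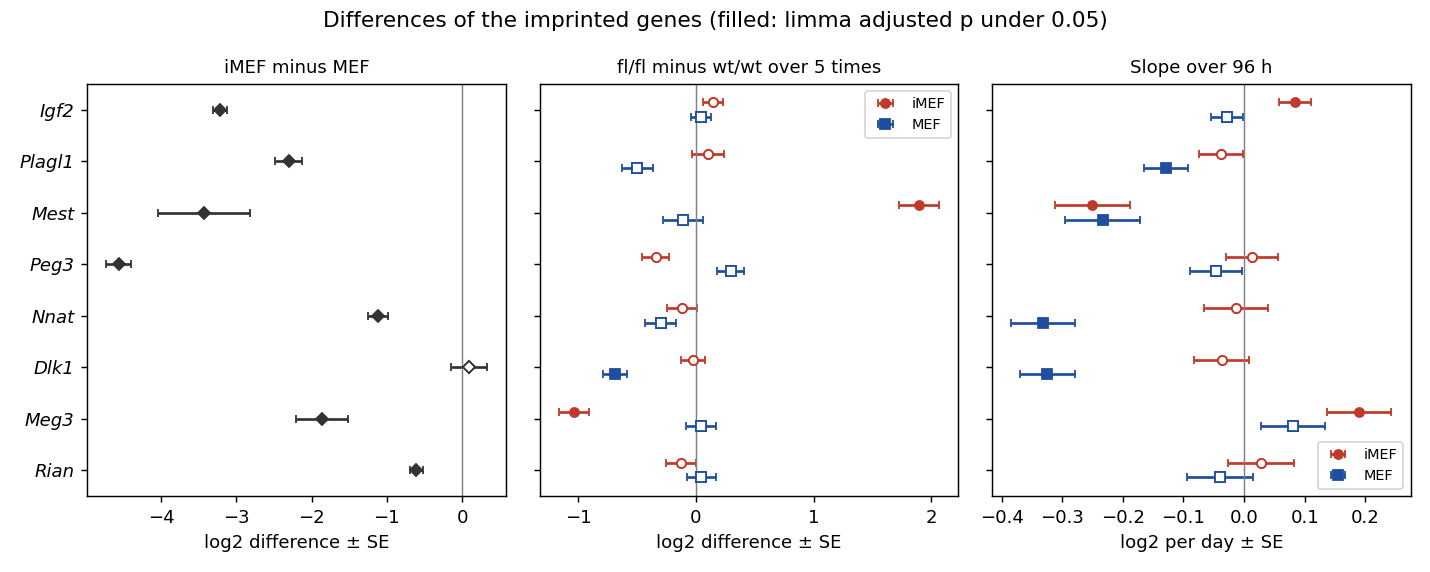
Differences of the 8 imprinted genes with their standard errors: iMEF minus MEF (left, log2), fl/fl minus wt/wt over the 5 times in each cell type (middle, log2) and slope with time (right, log2 per day). Filled symbols passed limma at an adjusted p under 0.05; Peg3 lay farthest left at -4.56 in the first panel, and Mest (1.90) and Meg3 (-1.04) stood apart in iMEFs in the second.

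Lists of marker genes were read in the same comparison, where 31.2% of all genes were lower and 35.1% higher. Of 8 macrophage markers tested, 8 were lower in iMEFs, and the mean level of the 9 listed lay between 8.33 and 9.66 in MEFs and between 6.27 and 6.70 in iMEFs. Lyz2, the macrophage lysozyme, was between 11.61 and 12.59 in MEFs and between 4.64 and 5.74 in iMEFs. Of 13 fibroblast markers, 11 were lower in iMEFs. Cycling-cell markers went the other way, with 5 of 7 higher, 0 lower and a median of 1.04. In either iMEF line 3 of the 9 macrophage markers, Lyz2 among them, were over the 40th percentile on no array. Of the 13 fibroblast markers this held for 1, Lum. Lyz2 and Lum thus reached the test only through MEFs, where they were high, and the lower counts of these 2 lists are given as values only. Higher and lower counts were 2 and 2 of 4 for endothelial, 2 and 0 of 4 for epithelial, and 3 and 1 of 5 for skeletal muscle markers. They were 0 and 2 of 6 for neural, 0 and 2 of 5 for adipocyte, and 0 and 1 of 4 for chondrocyte markers. In whole cultures, fewer cells of a type and less RNA per cell cannot be told apart, and the part of these cells in the levels of the imprinted genes was not tested. The genes closest in pattern to Peg3 over the 20 arrays were Lrrc15 (Pearson r = 0.996), Lyz2 (0.994) and Ptn (0.994), and those closest to Igf2 were Satb1 (0.995), Adam23 (0.991) and Peg3 itself (0.991). Adgrl3 was closest to Plagl1 (0.980), Tmem47 to Meg3 (0.966), Crabp1 to Mest (0.979), Adcyap1r1 to Nnat (0.911), Zdbf2 to Rian (0.916) and Mvd to Dlk1 (0.844). These correlations describe 20 arrays that share 4 lines and for most genes restate the gap between cell types.

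Other imprinted genes moved in both directions. Among 22 further paternally expressed genes, 17 had a probe set and 15 were tested, of which 7 were lower in iMEFs, 1 higher, and 7 did not pass, with a median of -0.34, where 31.2% of all genes were lower and 35.1% higher. With equal array medians 7 were lower and 5 higher. The largest differences were those of Ndn, a neuronal growth suppressor (-3.15 ± 0.82), Impact (-2.59 ± 0.08), the amino acid transporter Slc38a4 (-1.43 ± 0.20) and the non-coding RNA Airn (-1.19 ± 0.14). Dio3, which inactivates thyroid hormone and closes the Dlk1-Dio3 domain, was the 1 gene of this list that was higher in iMEFs in the values as deposited (0.82 ± 0.14), and it was named after its value was seen. Among 17 maternally expressed genes tested 7 were lower and 6 higher, with a median of -0.05, shares near those of all genes. Equal array medians turned this to 4 lower and 8 higher, with a median of 0.20. Igf2r, the receptor that removes IGF2 from the cell surface, differed by -2.12 ± 0.18. Igf2bp3, which binds Igf2 mRNA and is not part of the imprinted lists, differed by -2.59 ± 0.16. Grb10 and Cdkn1c, both growth inhibitors, differed by -0.89 ± 0.11 and -0.96 ± 0.13. Of the same maternally expressed list, Zim1 differed by -1.43 ± 0.21, and Trappc9 was higher in iMEFs, by 0.81 ± 0.10. Zim1, which is among the 7 counted as lower, was over the 40th percentile on 0 of 5 arrays of either iMEF line. It thus passed the filter through the cell type in which it was high, and its difference is given as a value only. Each of these named genes passed at an adjusted p under 0.05.

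The second question was whether removal of UBF changed the imprinted genes. The late effect is fl/fl minus wt/wt at 48, 72 and 96 h, less the same at 0 and 24 h. In iMEFs 0 of the 8 genes passed by limma, with 2 at an unadjusted p under 0.05, where 0.223% of all genes passed, 0.183% higher and 0.0393% lower. Of all 15272 genes, 3370 were at an unadjusted p under 0.05 there, so 2 of 8 was near the share of all genes. In MEFs 0 of 8 passed, with 2 at an unadjusted p under 0.05, and 0% of all genes passed, with 1052 of them at an unadjusted p under 0.05. The late effects ran from -0.80 to 0.45 in iMEFs and from -0.54 to -0.03 in MEFs.

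The gene nearest the threshold was Mest in iMEFs. It stood at 9.55, 9.57, 9.52, 8.75 and 7.98 in fl/fl iMEFs and at 7.18, 7.18, 7.67, 7.22 and 6.63 in wt/wt iMEFs, so that the gap narrowed from 2.37 at 0 h to 1.35 at 96 h. Its late effect was -0.80 ± 0.23 (adjusted p = 0.0986). For Nnat the late effect read 0.45 ± 0.20 in iMEFs and -0.48 ± 0.20 in MEFs, neither past the threshold (adjusted p = 0.217 and 0.706), and their difference of 0.93 ± 0.28 missed it too (adjusted p = 0.614). Plagl1 in fl/fl MEFs read 10.69, 10.35, 10.04, 9.83 and 9.76 with time, against 10.73, 10.65, 10.50, 10.59 and 10.66 in wt/wt MEFs. The Plagl1 arrays of the genotypes were level at 0 h and 0.91 apart at 96 h, and the late effect of -0.54 ± 0.24 did not pass (adjusted p = 0.706). With 1 line per genotype these errors are scatter between times.

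The third comparison asked whether the fl/fl and wt/wt lines of a cell type differed throughout, from 0 h on. In iMEFs 6.25% of all genes passed, 2.59% higher and 3.66% lower in the fl/fl line, and of the 8 imprinted genes Mest was higher and Meg3 lower in the fl/fl line. Mest was 3.72-fold higher, 1.90 ± 0.17 (adjusted p = 2.3e-05), with the 5 values of the fl/fl line above the 5 of the wt/wt line. Meg3 stood at 7.24, 7.29, 7.64, 7.49 and 8.40 in fl/fl iMEFs and at 8.50, 8.39, 8.69, 8.68 and 8.99 in wt/wt iMEFs. It was 2.05-fold lower, -1.04 ± 0.13 (adjusted p = 0.000296), and lower at each of the 5 times. Both gaps were present at 0 h, where Mest differed by 2.37 and Meg3 by -1.26. The mean levels of Mest over the 5 times thus ran from 11.61 ± 0.28 (SD over times) in wt/wt MEFs and 11.50 ± 0.54 in fl/fl MEFs to 9.07 ± 0.70 in fl/fl and 7.18 ± 0.37 in wt/wt iMEFs. Those of Meg3 ran from 10.01 ± 0.28 in fl/fl MEFs and 9.97 ± 0.33 in wt/wt MEFs to 8.65 ± 0.23 in wt/wt and 7.61 ± 0.47 in fl/fl iMEFs, and for either gene the MEF lines were closer to each other than their spread over time.

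In MEFs 2.47% of all genes passed, 1.33% higher and 1.14% lower in the fl/fl line, and of the 8 imprinted genes Dlk1 was lower in the fl/fl line. Dlk1 stood at 11.54, 11.14, 10.56, 10.08 and 10.47 in fl/fl MEFs and at 12.21, 11.82, 11.32, 10.86 and 11.04 in wt/wt MEFs. The gap was between -0.57 and -0.78 at every time, although the levels of both lines fell, and it averaged -0.69 ± 0.10 (adjusted p = 0.00244). Plagl1 missed the threshold with -0.50 ± 0.13 (adjusted p = 0.0919) and passed once the array medians were set equal. The macrophage markers moved with the same comparison: 4 of 8 were higher in fl/fl MEFs, where their mean level was 9.22 to 9.66 against 8.33 to 9.10 in wt/wt MEFs, and their part in the Dlk1 gap was not tested.

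The difference between genotypes was then compared between cell types, where 4.04% of all genes passed, 1.46% higher and 2.58% lower. Mest (2.004 ± 0.24, adjusted p = 0.000422) and Meg3 (-1.08 ± 0.18, adjusted p = 0.00415) passed. Dlk1 (0.66 ± 0.15, adjusted p = 0.0224) and Peg3 (-0.64 ± 0.16, adjusted p = 0.0448) passed as well, but less firmly. Peg3 was lower in fl/fl than in wt/wt iMEFs (-0.34 ± 0.11) and higher in fl/fl than in wt/wt MEFs (0.30 ± 0.11), and neither of these passed alone. The Peg3 call was lost without any single array of 0, 24, 48 or 72 h (adjusted p from 0.0583 to 0.121), with a difference between -0.67 and -0.52. The Dlk1 call was lost without the iMEF arrays of 0 or 48 h or the MEF arrays of 24, 48 or 72 h, each line taken singly (adjusted p from 0.0536 to 0.076), with a difference between 0.59 and 0.67. With a whole time left out, the Peg3 and Dlk1 calls were both lost without 0, 24, 48 or 72 h. The limma adjusted p then ran from 0.121 to 0.203 for Peg3 and from 0.0915 to 0.14 for Dlk1.

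Since Meg3 marks the start of the maternal transcripts of its domain, the microRNA precursors of the domain were read in the same comparison. MicroRNAs are short RNAs that pair with mRNAs mainly through a seed, bases 2 to 8. Of 51 precursors listed 39 had a probe set and 19 passed the filter on low values. The 4 with the largest gap between the iMEF lines were Mir382, Mir300, Mir134 and Mir377. Their mature arms are given from RefSeq, with the seed in capitals, and both arms are shown because the array cannot tell which was made.
miR-382-5p: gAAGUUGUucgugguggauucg
miR-382-3p: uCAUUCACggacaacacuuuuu
miR-300-5p: uUGAAGAGagguuauccuuugu
miR-300-3p: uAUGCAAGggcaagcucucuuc
miR-134-5p: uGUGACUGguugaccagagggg
miR-134-3p: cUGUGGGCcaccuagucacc
miR-377-5p: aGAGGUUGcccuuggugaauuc
miR-377-3p: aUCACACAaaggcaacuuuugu
The 8 arms carry 8 different seeds. Of the 93 mature sequences of the domain, 7 seeds occur in more than 1, none of them among these 8. On GRCm38.p6 the precursors lie on the plus strand at chr12:109733771-109733846 (Mir382), chr12:109724313-109724391 (Mir300), chr12:109734139-109734209 (Mir134) and chr12:109740510-109740577 (Mir377).

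**Figure D3:**
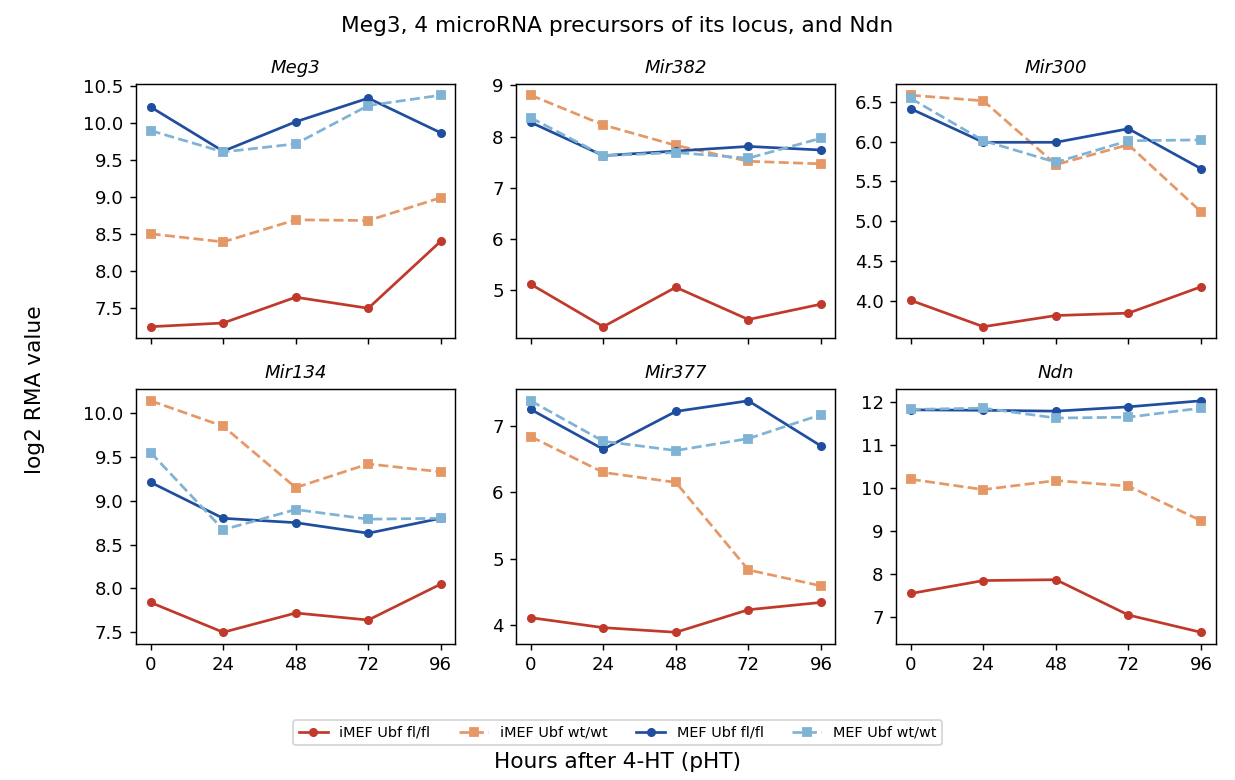
Levels (vertical axes, log2 RMA value) of Meg3, of 4 microRNA precursors of its domain and of Ndn against time after 4-HT (h) in the 4 lines, with 1 point per array. The fl/fl iMEF line (red) lay lowest at each time in all 6 panels, while the wt/wt iMEF line (orange) started among or above the MEF lines for Mir382, at 8.81, and fell away from them for Mir377, from 6.84 to 4.59.

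Mir382 stood at 5.12, 4.29, 5.06, 4.43 and 4.73 in fl/fl iMEFs and at 8.81, 8.23, 7.83, 7.52 and 7.47 in wt/wt iMEFs. In MEFs it lay between 7.58 and 8.37 in both genotypes, so only the fl/fl iMEF line stood apart. The fl/fl iMEF values were under the 40th percentile on 5 of 5 arrays, so Mir382 there has only an upper limit, and it was at least 3.21-fold lower than in wt/wt iMEFs. Between the iMEF lines the fitted difference was -3.25 ± 0.16 (adjusted p = 1.55e-07), and between the MEF lines it read -0.01. Mir134 ran from 7.50 to 8.05 in fl/fl iMEFs and from 9.15 to 10.14 in wt/wt iMEFs, a difference of -1.83 ± 0.15, and Mir300 from 3.68 to 4.18 against 5.12 to 6.58, a difference of -2.07 ± 0.21. Mir377 differed by -1.64 ± 0.32, and its gap narrowed as the wt/wt iMEF level went from 6.84 at 0 h to 4.59 at 96 h. All 4 passed the test, but Mir300 and Mir377 were under the 40th percentile on all 5 fl/fl iMEF arrays and over it on only 2 and 1 of the 5 wt/wt iMEF arrays, so no fold is given for them. Mir134 was over it on every array of both lines.

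Of the 19 precursors tested, 11 were lower in fl/fl iMEFs, 0 were higher and 8 did not pass, where 3.66% of all genes were lower, and the 19 differences were all negative. Their median was -0.59, against -0.03 for all genes. The count was 7 without 0 h or without 24 h, and without 24 h 17 of 19 differences were negative. Some of the 19 passed the filter only through the line in which they were high. The 39 with a probe set were therefore also read without any filter. Of these, 39 of 39 differences were negative, against 61.3% of all genes, with a median of -0.35, against -0.05 for all genes. These probe sets share a domain and many of them lie near the lowest levels of the array, so they are not independent. In MEFs 0 of 19 passed by limma, with 0 at an unadjusted p under 0.05, and the difference between cell types passed for 6 of 19, each lower in iMEFs, where 2.58% of all genes were lower. That count was 3 without 24 h, 4 without 0, 48 or 72 h, and 4 without any single array of 0 h, any MEF array of 24 h or any MEF array of 72 h. Among 11 genes beside the domain 0 passed by limma in either cell type, with 1 in iMEFs and 0 in MEFs at an unadjusted p under 0.05. Of all 15272 genes, 3406 in iMEFs and 1494 in MEFs were at that level.

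**Figure D4:**
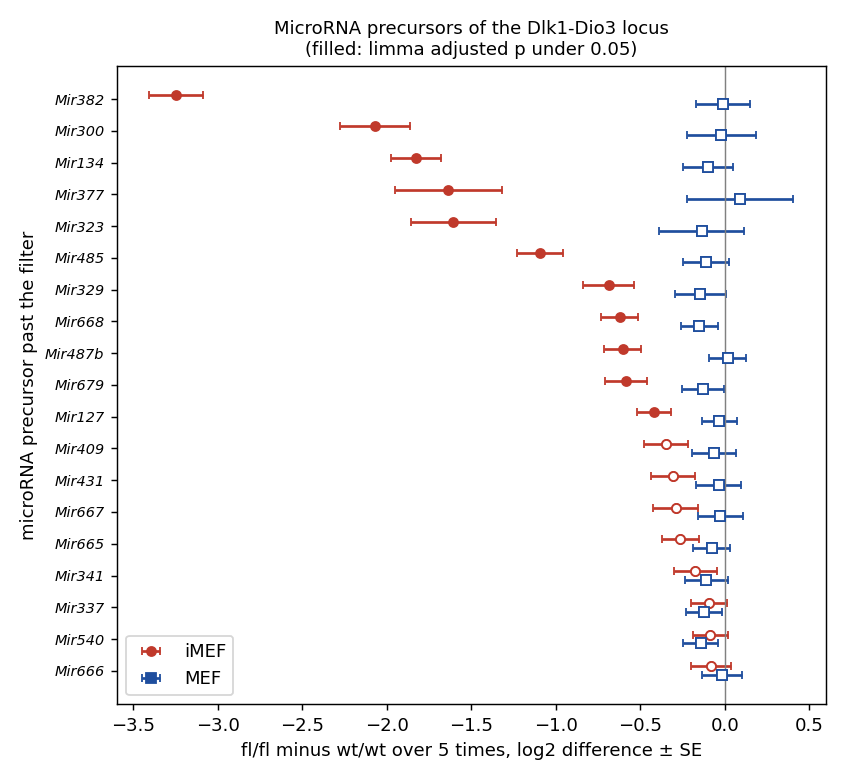
Difference fl/fl minus wt/wt over the 5 times (horizontal axis, log2 ± SE) for the 19 microRNA precursors of the Dlk1-Dio3 domain past the filter, in iMEFs (red circles) and MEFs (blue squares). Filled symbols passed limma at an adjusted p under 0.05: 11 did in iMEFs, with Mir382 at -3.25, and 0 in MEFs.

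Position along the chromosome went with the size of the gap. RefSeq places 18 of the 19 precursors. Of the 6 that lie before Mir323, 1 was lower, Mir127, with a median of -0.22, and of the 12 from Mir323 on 10 were lower, with a median of -0.89. Mir667 and Mir409 are those of the distal stretch that did not pass (-0.29 ± 0.13 and -0.35 ± 0.13). This split was made after the values were seen and carries no test. In the late effect of UBF removal in iMEFs, all 19 precursors had positive values, with a median of 0.53, against -0.04 for all genes. Of the 19, 13 were at an unadjusted p under 0.05 by limma, where 3370 of all 15272 genes were. Without any filter 37 of 39 were positive, where 45.1% of all genes were negative. In MEFs 0 of 19 were at an unadjusted p under 0.05, and their median was 0.06, as for all genes. The late effect in iMEFs minus that in MEFs was positive for all 19, with a median of 0.45, against -0.11 for all genes. By limma 0 of 19 passed in that difference, and 0% of all genes did. Of the 19, 4 were at an unadjusted p under 0.05, where 1136 of all 15272 genes were. Mir323 was the 1 precursor that passed in the late effect in iMEFs (1.60 ± 0.25, adjusted p = 0.0366). Mir323 stood at 5.32, 4.54, 5.68, 5.42 and 5.74 in fl/fl iMEFs and at 7.61, 7.38, 6.42, 6.61 and 6.72 in wt/wt iMEFs. The gap narrowed from 48 h on, where the wt/wt level was lower and the fl/fl reading higher. The fl/fl iMEF values were over the 40th percentile on 0 of 5 arrays, so a rise among them cannot be told from background. The call was lost in 18 of 32 alternatives.

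Outside the domain, Ndn showed a gap of the same kind. It stood at 7.55, 7.85, 7.87, 7.05 and 6.65 in fl/fl iMEFs and at 10.20, 9.96, 10.17, 10.04 and 9.24 in wt/wt iMEFs, and between 11.62 and 12.02 in MEFs. Its difference in iMEFs was -2.53 ± 0.11 (5.76-fold, adjusted p = 6.26e-08). Of the 15 paternally expressed genes tested Ndn alone passed there, a share near the 6.25% of all genes, and of the 17 maternally expressed genes 0 did by limma, with 3 at an unadjusted p under 0.05. Between the iMEF lines 3406 of all 15272 genes were at that level.

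The last comparison followed the imprinted genes over time in culture, as the mean slope of the fl/fl and wt/wt lines. In MEFs 4 of the 8 genes fell and 0 rose, where 7.61% of all genes fell and 5.89% rose. Dlk1 fell by 0.32 per day on the log2 scale (SE 0.05, adjusted p = 0.00014), with lowest values at 72 h in either line. Nnat fell by 0.33 per day (SE 0.05, adjusted p = 0.000443), with values of 8.06, 8.21, 7.30, 6.57 and 6.73 in fl/fl MEFs and of 8.07, 8.23, 7.49, 7.11 and 7.47 in wt/wt MEFs. Its fall lay between 24 and 72 h in both lines. Mest fell by 0.23 per day (SE 0.06, adjusted p = 0.0187), from 12.37 to 11.22 in fl/fl and from 11.90 to 11.19 in wt/wt MEFs. Plagl1 fell by 0.13 per day (SE 0.04, adjusted p = 0.0229), from 10.69 to 9.76 in fl/fl and from 10.73 to 10.66 in wt/wt MEFs. The Mest call was lost without the fl/fl array of 0 h (-0.16, adjusted p = 0.235), the wt/wt array of 0 h (-0.25, adjusted p = 0.0772) or that of 96 h (-0.22, adjusted p = 0.103), and the Plagl1 call without the fl/fl (-0.11, adjusted p = 0.178) or wt/wt (-0.11, adjusted p = 0.173) array of 0 h. With a whole time left out, both calls were lost without 0, 24 or 72 h. The limma adjusted p then ran from 0.0678 to 0.281 for Mest and from 0.0771 to 0.439 for Plagl1.

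Genes of dividing cells fell along with them. Of 7 cycling-cell markers tested 7 fell in MEFs and 0 changed in iMEFs by limma, where 0 had an unadjusted p under 0.05. Their mean level went from 10.74 at 0 h to 7.72 at 96 h in fl/fl MEFs and from 10.43 to 8.97 in wt/wt MEFs, while in iMEFs it stayed between 10.34 and 11.16. With the mean of each cell type taken off, the genes closest to Nnat over the 20 arrays were Cdc20 (r = 0.929) and Plk1 (0.924), which act in mitosis, and the histone chaperone Asf1b (0.925), and those closest to Dlk1 were Idh2 (0.909), Alg9 (0.904) and Pold2 (0.903). Whether the cycling of the cells had a part in the fall of Dlk1 or Nnat was not tested. Uhrf1, Dnmt1, Trim28 and Hells, which keep DNA methylation in place through cell division or act at imprinted regions, fell in MEFs too, and 5 of 15 imprinting and methylation factors did so, where 7.61% of all genes fell; Uhrf1 fell by 0.68 per day (SE 0.07).

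In iMEFs, where 17.1% of all genes passed, 4.44% rising and 12.7% falling, Igf2 and Meg3 rose and Mest fell. Meg3 rose by 0.19 ± 0.05 per day (adjusted p = 0.0217) and Mest fell by 0.25 per day (SE 0.06, adjusted p = 0.0122). Both rested on the last time: without 96 h the slopes were 0.10 for Meg3 (adjusted p = 0.613) and -0.09 for Mest (adjusted p = 0.604). Without the fl/fl array of 96 h alone they were 0.12 (adjusted p = 0.259) and -0.18 (adjusted p = 0.17), and without the wt/wt one 0.17 (adjusted p = 0.185) and -0.17 (adjusted p = 0.215). Both calls were also lost without 24 h, with slopes of 0.18 (limma adjusted p = 0.0564) and -0.25 (limma adjusted p = 0.0539). Igf2 rose by 0.08 ± 0.03 per day (adjusted p = 0.0365), a call that was lost without any 1 of the 5 times. It was lost too without the fl/fl iMEF array of 24 or 96 h, the wt/wt iMEF array of 0, 24, 72 or 96 h, or the wt/wt MEF array of 72 h, with slopes from 0.07 to 0.10.

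The slope differed between cell types for Dlk1 and Nnat, and 8.58% of all genes passed in this comparison, 2.97% with a higher and 5.61% with a lower slope in iMEFs. In iMEFs Dlk1 changed by -0.04 ± 0.05 and Nnat by -0.01 ± 0.05 per day, and the differences from MEFs were 0.29 ± 0.06 (adjusted p = 0.0121) and 0.32 ± 0.07 (adjusted p = 0.016). Nnat in iMEFs lay near the 40th percentile of the arrays, where a further fall could hardly be read. The Dlk1 call was lost without the 0 h array of fl/fl MEFs (0.25, adjusted p = 0.0566) or wt/wt MEFs (0.26, adjusted p = 0.0534) or the 96 h array of wt/wt iMEFs (0.26, adjusted p = 0.0626). The Nnat call was lost without the 96 h array of wt/wt iMEFs (0.30, adjusted p = 0.0752). With a whole time left out, both calls were lost without 0, 24 or 72 h. The limma adjusted p then ran from 0.0537 to 0.113 for Dlk1 and from 0.0608 to 0.0623 for Nnat.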

How the data were processed

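RNA from 4 lines at 5 times was hybridised to 20 Affymetrix whole-transcript arrays. The deposited values are log2 signals that the authors made with Affymetrix Power Tools 1.14.4 by RMA background correction, normalization and summarization, and per the study they came from Mouse Gene 2.0 ST arrays, although the probe annotation used here is that of the 1.0 ST design. The genome build of the probe sets is not given in the sources used here. Of 35556 probe sets, 21789 named 1 gene, 1621 several and 12146 were unlisted. Probe sets with several genes were not used. The detection p-values of the study were not used; genes over the 40th percentile of an array on at least 2 arrays were tested instead.

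Tests were run with limma 3.58.1 in R 4.3.3, with Benjamini-Hochberg adjustment over all genes and a threshold of 0.05. Line means were compared between cell types (2 residual degrees of freedom). The late effect and the lasting difference between lines were fitted on the 20 arrays with terms for line and for time within cell type, and the slopes with a slope for each line. A fold given as "at least" raises values under the 40th percentile to it, a choice made after seeing the data. Scripts were tested on simulated data. Sequences were read with Python 3.11.15 and figures drawn with matplotlib 3.10.9. Alternatives were other scalings, filters, probe summaries, variance settings and arrays, lines or times left out. Genes named outside the list were up to 4 past the threshold with the largest change per gene list and comparison, and the 3 closest in pattern, of which the first or all are given. The imprinted genes and the other lists were chosen with earlier results of these data known. With 1 array per line and time nothing says that cultures were repeated, so p-values measure the spread between these lines and times, and the number of arrays limits the precision.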

Additional observations from a re-analysis of the deposited data

Results flagged for a closer look

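The effects below differed between iMEFs and MEFs by a test of the difference itself in limma. For the gap between fl/fl and wt/wt lines over the 5 times, iMEFs minus MEFs was 2.004 for Mest, -1.08 for Meg3, 0.66 for Dlk1 and -0.64 for Peg3 on the log2 scale. In the Dlk1-Dio3 domain it was -3.23 for Mir382, -2.05 for Mir300, -1.73 for Mir134 and -1.47 for Mir323. Of these precursors only Mir134 was over the 40th percentile in fl/fl iMEFs. For other genes of the lists iMEFs minus MEFs was -2.63 for Ndn and 0.90 for Irs1, the substrate of the insulin and IGF1 receptors. For the slope with time, iMEFs minus MEFs was 0.29 per day for Dlk1 and 0.32 for Nnat. Among other imprinted genes it was -0.25 for Sgce, 0.26 for Cdkn1c and -0.29 for Slc22a18, and among methylation factors 0.43 for Uhrf1, 0.41 for Hells and 0.19 for Tet3. These calls did not hold alike. They were lost in 23 of 32 alternatives for Peg3, 15 of 32 for Dlk1 and 16 of 31 for Mir323 in the gap between lines. For the slopes they were lost in 23 of 32 for Sgce and for Tet3, 20 of 31 for Hells, 10 of 32 for Cdkn1c, 6 of 32 for Slc22a18 and for Dlk1, and 4 of 32 for Nnat and for Uhrf1. The largest of these gaps, Mir382, lay in the fl/fl iMEF line at every time, 0 h included. Each arm of these comparisons is 1 line, so line and genotype cannot be told apart.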

How the results depend on the processing

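No paired analysis was possible because the labels give no replicate numbers to pair by, although the lasting and late differences do compare the lines of a cell type within each harvest time. The list of imprinted genes gave 23 results past the threshold, tried under 616 alternatives in all: 531 kept direction and call, 85 kept direction and lost the call, and 0 reversed. The lower levels of Igf2, Peg3, Mest, Plagl1, Meg3 and Nnat in iMEFs, the gaps of Mest and Meg3 between the iMEF lines and the MEF slopes of Dlk1 and Nnat kept their calls under each alternative run for them. The Rian difference lost its call on 0 and 24 h only (-0.63, adjusted p = 0.0641), as did the Dlk1 gap in MEFs (-0.67, adjusted p = 0.113). The Dlk1 difference between cell types turned to -0.43 on 0 and 24 h only, to -0.52 on 0 h only and to -0.26 without the fl/fl MEF line, and was 0.43 without the wt/wt MEF line. The steps between 0 to 24 h and 48 to 96 h in place of slopes cost the iMEF calls of Igf2, Meg3 and Mest and the MEF call of Mest.

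Over all genes, the cell type difference had 3719 calls on 0 and 24 h only and 4675 on 0 h only, against 10131. The late effect in iMEFs, with 34 calls, had 101 with equal medians, 102 with quantile normalization, 92 with trend and robust variances, 168 with time common to both cell types, 14 with iMEFs alone, and 0 with 24 h left out (802 at an unadjusted p under 0.05) or counted as late (143). The lasting differences on 0 and 24 h only had 2606 calls in iMEFs, 38 in MEFs and 227 for iMEFs minus MEFs. Steps in place of slopes gave 331 calls in iMEFs and 512 for iMEFs minus MEFs. Quantile normalization moved the rising share of the called slopes in iMEFs from 25.9% to 40.1%, and equal medians moved the higher share of lasting differences in MEFs from 53.8% to 43.0%. Leaving out 1 line, time or array, of which the single arrays were chosen after seeing the data, gave 6251 to 10748 calls for the cell type difference. It gave 478 to 1360, 135 to 424 and 230 to 653 for the lasting differences in iMEFs, in MEFs and between them. It gave 0 to 1663, 0 to 81 and 0 to 5 for the late effects, and 137 to 4243, 667 to 3201 and 402 to 2727 for the slopes, in the same order. Where a line was left out, the lone line of a cell type was taken to vary like the other 2. The cause of these shifts was not tested. Genes near the 40th percentile, as Peg3, Nnat and Rian in iMEFs, are limited by signal over background.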

Other observations

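In the comparison of cell types, where 35.1% of all genes were higher and 31.2% lower, the other parts of the IGF pathway and the genes beside the imprinted domains were measured as well. Of 7 IGF2 receptors and mRNA-binding proteins, 4 were lower and 1 higher in iMEFs, or 4 and 2 with equal array medians. Insr, the insulin receptor, differed by -1.36 ± 0.13, Irs1 by -1.14 ± 0.22 and Irs2 by 0.93 ± 0.09. Irs1 was higher in the fl/fl than in the wt/wt line among iMEFs (0.45 ± 0.09) and lower among MEFs (-0.46 ± 0.09). The iMEF call was lost in 5 of 32 alternatives and the MEF call in 8 of 32. Of 15 imprinting and methylation factors tested, 5 were higher in iMEFs, led by Uhrf1 (1.63 ± 0.16) and the maintenance methyltransferase Dnmt1 (0.96 ± 0.20), and 7 lower, led by the insulator protein Ctcf (-1.21 ± 0.11) and the dioxygenase Tet1 (-0.83 ± 0.09). Equal array medians turned this balance to 7 higher and 3 lower. Beside H19 and Igf2, 8 genes were tested, of which 4 were higher and 1 lower in iMEFs (6 and 0 with equal medians), with Syt8 at 1.07 ± 0.16 and Ctsd, a lysosomal protease, at -0.47 ± 0.12, a call that was lost in 5 of 15 alternatives. Beside Dlk1-Dio3, 3 of 11 were higher and 5 lower, turned to 5 higher and 3 lower by equal medians, with Hsp90aa1 at -2.33 ± 0.18. Peg10 and Slc38a4 fell with time in both cell types, Peg10 by 0.40 per day (SE 0.08) in iMEFs and by 0.36 per day (SE 0.08) in MEFs.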
